A study of Mus musculus with 8 samples.

Results

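The 10 genes described here encode the core of the IL-1, TNF and inflammasome response: the cytokines Il1b, Il1a, Il18 and Tnf, the IL-1 receptor antagonist Il1rn, the decoy receptor Il1r2, the inflammasome sensor Nlrp3 and its protease Casp1, the NF-kappaB inhibitor Nfkbia and the prostaglandin synthase Ptgs2. They were taken by name from 8 tables of digital gene expression that together list 32502 genes, and all 10 were found. The tables hold counts of unique molecular identifiers (UMIs), 1 per captured transcript, for single cells profiled by Drop-seq, a droplet method that reads the 3′ end of each transcript, in brain tissue of C57BL/6 mice (C57BL/6N in the methods). Wild-type mice (WT, Irg1/Acod1 +/+) and Acod1 knock-out mice (KO, Irg1/Acod1 -/-) were compared, in which a cassette inserted between exons 3 and 5 disrupts Acod1, the enzyme that makes itaconate in activated macrophages. Each genotype gave 1 naive library without tumour and 1 library at each of 3 stages after implantation of GL261 cells, a syngeneic mouse glioma line, at tumour volumes of 5 to 10 mm3 (early), 20 to 25 mm3 (intermediate) and 30 to 35 mm3 (late). A tumour library was 1 mouse, while the titles of both naive libraries name 2 mice. The age of the mice is not given in the labels. The early and intermediate mice also differed in sex between the genotypes, so sex and genotype cannot be told apart at those stages. The WT early mouse was female and the WT late mouse male, so sex and stage cannot be told apart within WT either, while both KO mice of these stages were male. Each stage rests on 1 mouse per genotype.

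IL-1α and IL-1β signal through the same receptor, which the antagonist IL-1RN occupies without signalling and from which the decoy receptor IL-1R2 withholds its ligands. IL-1β and IL-18 are made as inactive precursors that caspase-1 cleaves once NLRP3 has assembled an inflammasome, so transcript levels do not show how much active cytokine was released. TNF and IL-1 both activate NF-kappaB, which in turn induces Nfkbia, the gene of its own inhibitor, and Ptgs2, the inducible cyclooxygenase that leads to prostaglandin E2. In brain tumours these genes are known mainly from resident microglia and from macrophages that enter from the blood.

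The starts of 4 of the genes that were higher in microglia of tumour-bearing brains are shown, as examples that hold TATAAA or NF-kappaB letters. Nlrp3, also higher, held the NF-kappaB consensus at -186 and is not shown. The windows run from 250 bases before to 50 bases after the annotated start (RefSeq, build GRCm38.p6), and capitals mark each match on either strand to TATAAA, to TGANTCA (an AP-1 type motif) or to the NF-kappaB consensus. The windows lie at chr2:129371090-129371389 for Il1b, chr2:129309923-129310222 for Il1a, chr17:35201958-35202257 for Tnf and chr12:55492598-55492897 for Nfkbia, all on the minus strand, and are written along the gene.
Il1b: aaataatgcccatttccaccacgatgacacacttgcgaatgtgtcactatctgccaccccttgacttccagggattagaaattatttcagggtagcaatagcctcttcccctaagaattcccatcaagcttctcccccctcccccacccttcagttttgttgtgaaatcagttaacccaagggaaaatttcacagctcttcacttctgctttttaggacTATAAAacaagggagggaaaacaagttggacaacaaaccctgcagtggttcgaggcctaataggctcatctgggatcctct
Il1a: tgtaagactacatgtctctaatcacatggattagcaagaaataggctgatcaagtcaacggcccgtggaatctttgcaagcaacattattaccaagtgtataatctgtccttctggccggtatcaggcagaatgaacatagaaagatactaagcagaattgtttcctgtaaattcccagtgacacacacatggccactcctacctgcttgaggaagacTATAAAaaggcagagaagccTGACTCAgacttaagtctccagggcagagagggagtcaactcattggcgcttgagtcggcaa
Tnf: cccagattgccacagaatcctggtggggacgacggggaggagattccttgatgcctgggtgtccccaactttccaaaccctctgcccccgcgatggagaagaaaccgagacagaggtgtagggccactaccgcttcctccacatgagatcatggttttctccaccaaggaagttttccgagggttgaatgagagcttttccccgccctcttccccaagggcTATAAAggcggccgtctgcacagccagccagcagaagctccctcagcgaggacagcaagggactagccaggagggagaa
Nfkbia: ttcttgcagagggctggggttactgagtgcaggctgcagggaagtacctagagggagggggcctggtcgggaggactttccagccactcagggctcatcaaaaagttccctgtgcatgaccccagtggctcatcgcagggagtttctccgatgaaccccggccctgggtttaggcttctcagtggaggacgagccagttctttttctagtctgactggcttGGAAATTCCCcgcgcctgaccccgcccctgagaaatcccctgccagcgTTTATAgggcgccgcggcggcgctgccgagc

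TATAAA began at position -31 of Il1b, -32 of Il1a and -29 of Tnf, counted from the start, and TGANTCA stood at -12 of Il1a. In the Nfkbia window the NF-kappaB consensus stood at -29 and TATAAA at 19, both read on the other strand. Among 32851 such windows of the genome, TATAAA was found in 13.6%, TGANTCA in 7.81% and the NF-kappaB consensus in 4.51%. The 10 genes have 13 windows, of which 6, 2 and 2 held these motifs, the NF-kappaB consensus being found for Nlrp3 and Nfkbia. A match of letters is a description and shows no binding. Il1a and Il1b are neighbours on the minus strand of chromosome 2, with 54597 bases between them (GENCODE M21). Il1b overlaps the antisense gene Il1bos, Il1a overlaps Gm14023, Il1r2 overlaps Gm16894, and Il18 overlaps Bco2 and Tex12, all on the opposite strand, so UMIs of these pairs cannot be told apart where the counting did not use the strand, which is not given in the sources used here. Il1r2 also overlaps Gm37347 on its own strand over 3071 bases, and UMIs there cannot be told apart in either case.

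Of 8000 barcodes, the 1000 deepest of each library, 5698 expressed at least 1000 genes and were kept, with a median of 2597.5 to 5637.5 UMIs per cell by library. Cell types were rebuilt from marker genes, without the 10 genes or their pathway lists, so differences from the cell names of the study may come from the rebuilt names. Microglia-like cells were found in every library (87 and 112 in the naive WT and KO libraries, and 64, 5 and 20 in WT and 23, 44 and 17 in KO at the early, intermediate and late stage) and are called TAM I in tumour-bearing brains. Macrophage-like cells, called TAM II, numbered 106, 16 and 21 in WT and 74, 84 and 113 in KO at the same stages, and 1 in each naive library. Microglia markers summed to 30130 and 31640 CPM (UMIs per 1000000 UMIs of the summed cells) in naive microglia, 11470 to 19600 in TAM I and 1185 to 3244 in TAM II, and macrophage markers to 420 and 609, 1356 to 4556 and 22710 to 31470 CPM. All 12 microglia markers were detected in each microglia sum and all 13 macrophage markers in each TAM II sum, in which none of the defining genes of these lists was at 0. Libraries shared 22 barcodes of kept cells over all pairs, 0 to 2 per pair. The WT intermediate library held 5 microglia with 17374 UMIs in all, so its microglia values are the least precise, and the WT late microglia held 5120 CPM of oligodendrocyte markers against 173 to 1169 in the other microglia.

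Acod1, the targeted gene, was read in the WT microglia with 0 UMIs in the naive library and 64, 2 and 3 at the early, intermediate and late stage, and in the KO microglia with 0, 0, 1 and 0. In TAM II it was read with 72, 3 and 1 UMIs in WT (128, 35.4 and 9.38 CPM) and 27, 5 and 33 in KO (68.2, 13.7 and 69.7 CPM). Acod1 UMIs were therefore present in TAM II of the libraries labelled KO. Whether these 3′ tags lie outside the disrupted exons was not tested, and the counts do not check the genotype labels.

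Across cell types, 9 of the 10 genes had their highest median in a myeloid type (microglia, TAM II or dendritic-like cells) and Il18 had it in astrocytes. Il1b reached a median of 6160 CPM in dendritic-like cells (2911 to 8242, 5 libraries with at least 5 such cells), 4758 CPM in TAM II (3445 to 5375, 6 libraries) and 1093 CPM in microglia (0 to 1882, 8 libraries). The ranges of dendritic-like cells and TAM II overlapped, and both lay above every microglia library. In no other cell type did Il1b exceed a median of 29.2 CPM.

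**Figure D1:**
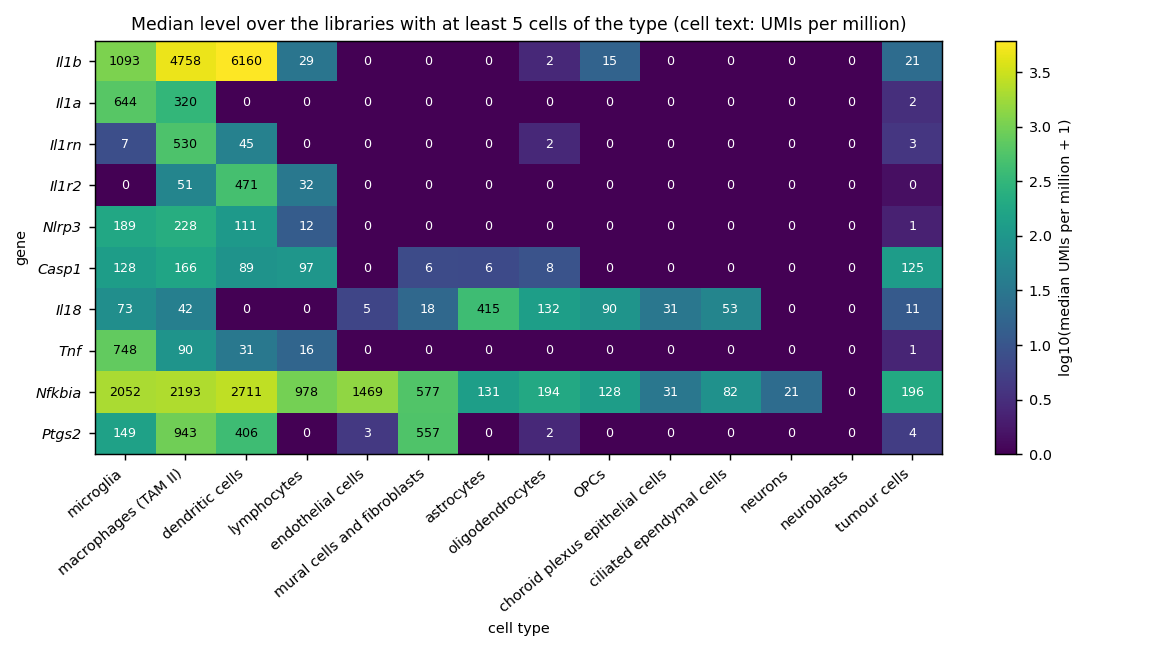
Heat map of the median level of the 10 genes (rows) in 14 marker-named cell types (columns) over the libraries with at least 5 cells of the type; the colour is log10 of the median CPM plus 1 and the text in each field is the median in CPM, with 0 where the median library had none. Il1b is brightest in dendritic-like cells (6160) and TAM II (4758), Tnf in microglia (748), Il18 in astrocytes (415) and Ptgs2 in TAM II (943).

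Il1a, the other ligand of the IL-1 receptor, was detected at a median of 644 CPM in microglia and 319 CPM in TAM II, and at 0 to 2.28 CPM in the remaining types. Il1rn was highest in TAM II (530 CPM, 309 to 771), followed by dendritic-like cells (44.8 CPM, 33.7 to 598). Il1r2 was highest in dendritic-like cells (471 CPM, 189 to 525), above all TAM II libraries (0 to 80.2 CPM). Lymphocytes carried Il1r2 at a median of 32.4 CPM (0 to 79.1), which overlapped the TAM II range. Il1b and its decoy receptor were thus highest at the median in dendritic-like cells and the antagonist in TAM II.

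Among the inflammasome genes, Nlrp3 was highest in TAM II and microglia (228 and 189 CPM), whose ranges overlapped. Casp1 stood at 166 CPM in TAM II, 128 CPM in microglia, 125 CPM in tumour cells and 97.2 CPM in lymphocytes, and these ranges overlapped as well. Il18, the other substrate of caspase-1, was highest in astrocytes at 415 CPM (270 to 582, 7 libraries), above every library of each other type. Oligodendrocytes followed with 132 CPM (97.1 to 163), and microglia had 72.7 CPM (32.1 to 169). Tnf was highest in microglia, with a median of 748 CPM over the 8 libraries, against 89.8 CPM in TAM II and at most 31.5 CPM elsewhere. Nfkbia was detected in almost every type, with medians of 2711 CPM in dendritic-like cells, 2193 in TAM II, 2052 in microglia and 1469 in endothelial cells, all overlapping. Ptgs2 was highest in TAM II (943 CPM), followed by mural cells and fibroblasts (557 CPM) and dendritic-like cells (406 CPM).

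Droplets can take up free RNA, so shares in tumour cells are given beside those of the myeloid cells. Free RNA was not estimated, and it was not told apart from doublets or low expression in tumour cells. With cells thinned to 1500 UMIs, which kept all 414 TAM II, all 173 TAM I and 3312 of 3398 tumour cells (shallower cells were left out of the shares), Il1b was found in 77.8% of TAM II (exact binomial 95% interval 73.5 to 81.7), 42.2% of TAM I (34.7 to 49.9) and 3.08% of tumour cells (2.52 to 3.73). Il1rn was found in 38.7% of TAM II, 3.47% of TAM I (1.28 to 7.40) and 0.453% of tumour cells. Before thinning, at median depths of 3346.5, 2937 and 4871 UMIs per cell, the shares were 84.8%, 46.2% and 5.15% for Il1b and 55.8%, 8.09% and 1.09% for Il1rn. In tumour cells 101 Il1rn UMIs stood beside 903 Il1b UMIs and in TAM II 1075 beside 9602, whereas TAM I held 30 beside 1050. Tnf was found in 35.8% of thinned TAM I, 8.94% of TAM II and 0.453% of tumour cells, and Ptgs2 in 59.9% of TAM II, 19.1% of TAM I and 0.815% of tumour cells. Casp1 differed from these genes, with 20.0% of TAM II, 14.5% of TAM I, 11.1% of tumour cells (10.0 to 12.2) but 0.897% of oligodendrocytes (0.109 to 3.20). Intervals cover counting error only.

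The first comparison asked which of the 10 genes differed between microglia of naive and of tumour-bearing brains. The methods name the tumour core as the region taken from tumour-bearing brains and name no region for naive brains. Tumour and sampled region therefore cannot be told apart here. IL-1 ligands, Tnf, Ptgs2, Nfkbia and Nlrp3 were higher in the tumour-bearing microglia, while Casp1 and Il18 did not pass the test. Of the 8 genes that passed the count filter, 6 were called higher and 0 lower (edgeR quasi-likelihood test on UMI sums per library, adjusted p under 0.05 by Benjamini-Hochberg over 3285 genes), beside 15.3% of all genes called, 9.25% higher and 6.09% lower. The median log2 fold change was 2.77 over the 8 genes and 0.02 over all genes. Il1b and Ptgs2 had 1 naive UMI each and Tnf had 9. These genes passed the count filter through the tumour-bearing libraries and could hardly come out lower. The count of calls and the median include them and are a description. The naive and the tumour-bearing microglia lay mostly in different divisions of the clustering: 196 of 199 naive cells in 1 division with only 9 tumour-bearing cells, which held 1 Il1b UMI and no UMI of Il1a, Tnf or Ptgs2.

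Il1b was read with 5.03 CPM (1 UMI) and 0 CPM in the naive WT and KO libraries. In the tumour-bearing microglia it stood at 1748, 808 and 1421 CPM in WT and 1285, 1882 and 901 CPM in KO at the early, intermediate and late stage. All 6 tumour-bearing libraries lay above both naive ones. The ratio of the pooled UMIs, 1050 of 660846 against 1 of 481848, was 766 (counting interval 137 to 3.03e+04), and edgeR gave a log2 fold change of 8.89 ± 0.81 (SE; Benjamini-Hochberg adjusted p = 5.41e-06). Il1a, whose precursor is active without cleavage by caspase-1, had 35.2 and 102 CPM in the naive libraries and 453, 1616 and 835 CPM in WT and 974, 978 and 306 CPM in KO with tumour, again without overlap. Its pooled ratio was 9.32 (6.63 to 13.5) and its log2 fold change 3.55 ± 0.57 (edgeR, Benjamini-Hochberg adjusted p = 0.000532). Il1a was thus the ligand already present at baseline, with 36 naive UMIs against 1 for Il1b.

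**Figure D2:**
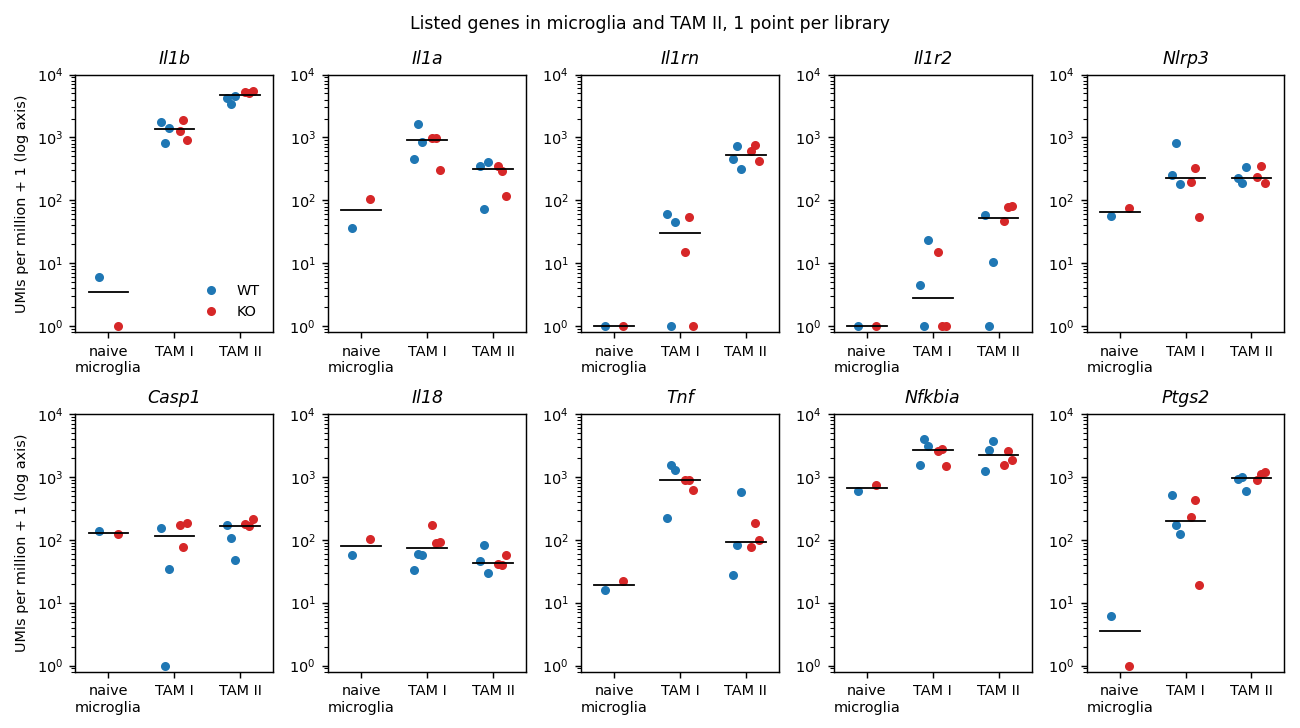
Level of each of the 10 genes in CPM plus 1 (log axis), 1 point per library, in naive microglia (2 libraries), TAM I (6) and TAM II (6); blue is WT, red is KO and the bar is the median of the libraries. Il1b rises from at most 5.03 in naive microglia to 808 to 1882 in TAM I and 3445 to 5375 in TAM II, whereas Tnf lies at 221 to 1558 in TAM I and 26.7 to 572 in TAM II.

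The antagonist Il1rn was not detected in either naive library (0 of 481848 UMIs) and was read with 60.7, 0 and 45.1 CPM in WT and 14.1, 54.0 and 0 CPM in KO with tumour. With 30 UMIs in all it was at least 7.29-fold higher in the tumour-bearing microglia, taking 3 UMIs over the naive group as the limit. It stayed below the count filter, and without the filter it was called (edgeR, Benjamini-Hochberg adjusted p = 0.00145). Il1r2 had 4 UMIs in the tumour-bearing and 0 in the naive microglia, which is too few for a fold.

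Tnf rose from 15.1 and 21.2 CPM in the naive libraries to 221, 1558 and 1263 CPM in WT and 890, 884 and 613 CPM in KO. The tumour-bearing libraries all lay above the naive ones, at a pooled ratio of 34.8 (18.1 to 76.5) and a log2 fold change of 5.46 ± 0.68 (edgeR, Benjamini-Hochberg adjusted p = 6.22e-05). Ptgs2 had 5.03 and 0 CPM in the naive libraries and 507, 173 and 124 CPM in WT and 226, 432 and 18.0 CPM in KO. Its lowest value with tumour, in the KO late library, was 1 UMI and the WT naive value was also 1 UMI, so their order is within counting error. The log2 fold change of Ptgs2 was 6.65 ± 1.14 (edgeR, Benjamini-Hochberg adjusted p = 0.000871), with a pooled ratio of 173 (30.7 to 6854) that rests on 1 naive UMI.

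Nfkbia, whose protein holds NF-kappaB in the cytoplasm, had 584 and 749 CPM in the naive libraries and 1520, 3982 and 3067 CPM in WT and 2584, 2719 and 1495 CPM in KO with tumour. The groups did not overlap, and the pooled ratio was 3.19 (2.83 to 3.61; edgeR, Benjamini-Hochberg adjusted p = 0.00304). Nlrp3 had 55.4 and 74.2 CPM in the naive libraries and 257, 808 and 180 CPM in WT and 198, 324 and 54.1 CPM in KO. Its groups overlapped, since the KO late library was below both naive ones, and the log2 fold change was 1.99 ± 0.54 (edgeR, Benjamini-Hochberg adjusted p = 0.0191). Without the WT naive, the KO naive or the KO intermediate library the Nlrp3 call was lost (log2 fold changes of 1.49, 2.42 and 1.61), and without either naive library that of Nfkbia was lost as well (1.60 and 2.08).

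Casp1 and Il18, the protease and a precursor it cleaves, gave no such difference. Casp1 had 136 and 120 CPM in the naive libraries and 153, 0 and 33.8 CPM in WT and 169, 74.2 and 180 CPM in KO, a pooled ratio of 0.944 (0.668 to 1.34). Il18 had 55.4 and 102 CPM in the naive libraries and 32.1, 57.7 and 56.4 CPM in WT and 169, 87.7 and 90.1 CPM in KO, a pooled ratio of 0.820 (0.524 to 1.29). The log2 fold changes were -0.08 ± 0.48 and -0.01 ± 0.40, and neither passed the test (edgeR, Benjamini-Hochberg adjusted p = 0.934 and 0.993).

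Among the other genes of these pathways, Il18bp, the soluble inhibitor of IL-18, rose by 5.02 on the log2 scale and was the 1 further gene tested of 4 in the ligand list. Of 13 further inflammasome genes 9 were tested, with 0 called higher and 1 lower, Txnip (-1.08), a call that DESeq2 did not make (0 of the 9). The TNF list had 2 of 4 tested genes called higher, Tnfaip2 (2.71) and Tnfaip3 (2.04), the latter an inhibitor of NF-kappaB signalling. The NF-kappaB list had 2 of 8 called higher, the nuclear regulators Nfkbid (2.01) and Nfkbiz (1.96), and the prostaglandin list 1 of 4 called lower, Hpgd (-2.03), which degrades prostaglandins. Neither of the 2 receptor and signalling genes tested was called (0 at an unadjusted p under 0.05, and 0 by DESeq2). Tissue was digested warm, and the 14 genes known to respond to dissociation summed to 15970 and 18010 CPM in the naive and 10120 to 17480 CPM in the tumour-bearing microglia, with 2 called higher (Nr4a1 and Atf3) and 2 lower (Jun and Hspa1a). The part of dissociation in the results was not tested.

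**Figure D3:**
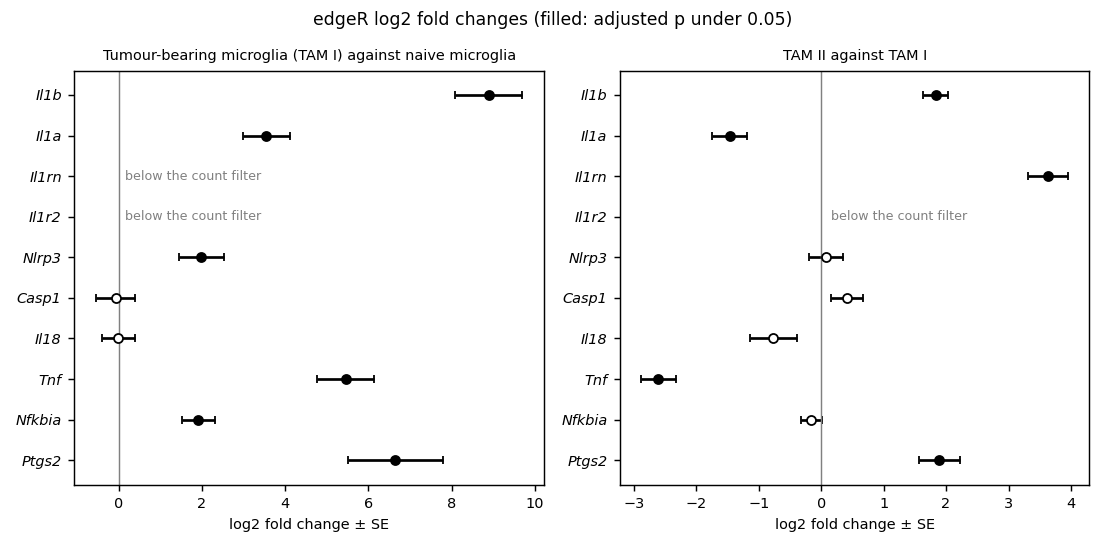
Log2 fold change with its standard error (edgeR) for the 10 genes, on the left in tumour-bearing against naive microglia and on the right in TAM II against TAM I; filled points passed an adjusted p of 0.05 and grey text marks genes below the count filter. On the left Il1b (8.89), Ptgs2 (6.65) and Tnf (5.46) lie farthest to the right, and on the right Il1rn (3.63) and Tnf (-2.61) lie farthest apart.

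The next comparison set TAM II against TAM I within each tumour-bearing library, to ask which cells carried which part of the response. TAM II had more Il1b, more of its antagonist Il1rn and more Ptgs2, and TAM I had more Il1a and Tnf, in 6 of 6 libraries each. The share of all genes with the same direction in 6 of 6 libraries was not counted. Such counts of libraries, here and below, are therefore a description. Of 9 genes tested, 3 were called higher and 2 lower in TAM II, beside 27.4% of all 3654 genes called (14.1% higher and 13.3% lower). The median log2 fold change was 0.08 over the 9 genes and 0.06 over all genes. Il1rn had 30 UMIs in all TAM I, so it passed the count filter through TAM II and could hardly come out lower. The count of calls and this median include Il1rn and are a description. The comparison shares the TAM I libraries with the one above, so the values are given side by side only.

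Il1b in TAM II had 4233, 3445 and 4501 CPM in WT and 5219, 5014 and 5375 CPM in KO at the early, intermediate and late stage. Every one of these lay above all TAM I libraries (808 to 1882 CPM), and the log2 fold change was 1.83 ± 0.20 (edgeR, Benjamini-Hochberg adjusted p = 1.34e-06). Il1a went the other way, with 347, 70.8 and 413 CPM in WT and 351, 292 and 116 CPM in KO against 306 to 1616 CPM in TAM I. The ranges overlapped between libraries, but TAM II was lower within each, at -1.47 ± 0.28 (edgeR, Benjamini-Hochberg adjusted p = 0.000549). The pair of neighbouring genes for the same receptor thus differed in opposite directions between the cell classes.

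Il1rn showed the largest positive difference of the 10 genes. It had 459, 731 and 309 CPM in WT TAM II and 601, 771 and 426 CPM in KO TAM II, against 0 to 60.7 CPM in TAM I. The log2 fold change was 3.63 ± 0.32 (edgeR, Benjamini-Hochberg adjusted p = 1.28e-07). Il1r2 had 56.9, 0 and 9.38 CPM in WT TAM II and 45.5, 76.5 and 80.2 CPM in KO TAM II, against 0 to 22.6 CPM in TAM I, and stayed below the count filter. Without the filter its log2 fold change was 3.14 ± 0.60 (edgeR, Benjamini-Hochberg adjusted p = 9.14e-06). It was higher in TAM II in 4 of 6 libraries and lower in 1, WT late (9.38 against 22.6 CPM), and rested on 4 UMIs in all TAM I.

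Cells in which antagonist and ligand were both read were counted as well. Of 414 TAM II in tumour-bearing brains, 351 held an Il1b UMI, 231 an Il1rn UMI and 214 both. Of 173 TAM I, 80 held Il1b, 14 Il1rn and 12 both. Il1a and Il1b were read together in 67 TAM I, of 109 and 80 cells with each, and Il1b and Tnf in 42, of 80 and 78. In TAM II, 75 of the 82 cells with Tnf also held Il1b. These counts rise with depth and with the number of cells that hold each gene. They are not adjusted for either, so they do not show that the genes go together.

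Tnf in TAM II stood at 26.7, 82.6 and 572 CPM in WT and 75.8, 180 and 97.1 CPM in KO, against 221 to 1558 CPM in TAM I. Apart from the WT late library all TAM II values lay below the lowest TAM I value. The log2 fold change was -2.61 ± 0.27 (edgeR, Benjamini-Hochberg adjusted p = 9.29e-07). Ptgs2 had 906, 979 and 591 CPM in WT TAM II and 874, 1126 and 1192 CPM in KO TAM II, all above TAM I (18.0 to 507 CPM), at 1.89 ± 0.33 (edgeR, Benjamini-Hochberg adjusted p = 0.000229).

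Nlrp3, Casp1, Il18 and Nfkbia did not pass the test between TAM II and TAM I. Nlrp3 had 222, 189 and 338 CPM in WT TAM II and 235, 355 and 186 CPM in KO TAM II, at a log2 fold change of 0.08 ± 0.27. Casp1 had 171, 106 and 46.9 CPM in WT and 179, 161 and 209 CPM in KO, higher than TAM I in 6 of 6 libraries, at 0.41 ± 0.26 (edgeR, Benjamini-Hochberg adjusted p = 0.254). Il18 had 44.4, 82.6 and 28.1 CPM in WT and 40.4, 38.3 and 57.0 CPM in KO, at -0.77 ± 0.38 (edgeR, Benjamini-Hochberg adjusted p = 0.145). Nfkbia had 1224, 2619 and 3666 CPM in WT and 1548, 2525 and 1861 CPM in KO, at -0.16 ± 0.17 (edgeR, Benjamini-Hochberg adjusted p = 0.530).

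Of the other pathway genes, Il18bp was higher in TAM II (log2 fold change of 0.84), a call that DESeq2 did not make. Of 7 further inflammasome genes tested of 13, 0 were called higher and 4 lower in TAM II, namely Txnip (-2.09), the DNA sensor Aim2 (-1.36), Nek7, a partner of NLRP3 (-0.89), and Casp4 (-0.76), where DESeq2 called 3. Tnfaip2 (1.48) was the 1 gene called of 6 in the TNF list, and 0 of 9 in the NF-kappaB list were called by edgeR (5 had an unadjusted p under 0.05, and DESeq2 called 0). Hpgd (-5.99) and Ptgs1, the constitutive cyclooxygenase (-2.18), were lower in TAM II, 2 of 4 in the prostaglandin list, while Ptgs2 was higher. Of the 14 dissociation genes 2 were higher and 8 lower in TAM II, and their sum was 6484 to 9992 CPM in TAM II against 10120 to 17480 CPM in TAM I. Neutrophil markers, a cell type known for Il1b and Il1r2, summed to 11.8 to 78.1 CPM in TAM II and 57.7 to 169 CPM in TAM I, with at most 4 of 10 detected in a TAM II library and S100a9, Retnlg, Cxcr2, Mmp9, Lcn2 and Ngp at 0 over all TAM II. In a TAM I library 1 or 2 of 10 neutrophil markers were detected, and these markers summed to 267 and 290 CPM in naive microglia. Border-associated macrophage markers were 725 to 3397 CPM in TAM II and at most 57.7 CPM in TAM I. Of these 5 markers 2 to 4 were detected in a TAM II library, and the list includes Mrc1, which the paper uses as a marker of TAM II. The part of both lists in the result was not tested beyond leaving out the cells that held their markers. Leaving these cells out kept all 5 calls. That setting removed many TAM II (106 to 55 cells in WT early, 113 to 57 in KO late). It left 4 TAM II in the WT intermediate library, below the minimum of 5, so that library left the fit as well.

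TAM I were not uniform. Of the 173 cells, 85 lay in a division with a median of 4782 UMIs per cell and 3853 CPM of macrophage markers and 79 in a division with a median of 2259 UMIs and 910 CPM. All 30 Il1rn UMIs of TAM I lay in the deeper division (65.4 CPM), with 0 of 182426 UMIs in the shallower. Ptgs2 had 506 CPM in the deeper and 27.4 CPM in the shallower division, Il1b 1938 and 877 CPM and Tnf 724 and 532 CPM. Il1a (661 and 861 CPM) and Nfkbia (2001 and 2790 CPM) were higher in the shallower one. Among the 3 divisions of TAM II, Il1b had 5338, 6945 and 3966 CPM and Il1rn 561, 676 and 489 CPM. These divisions were drawn on the cells compared, so their values are a description.

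**Figure D4:**
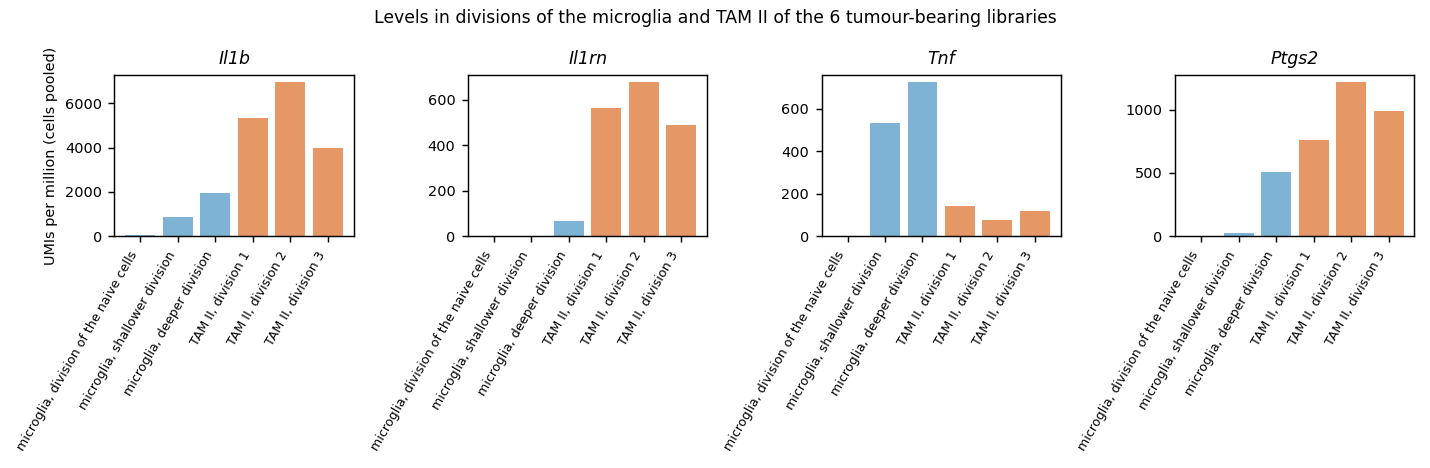
Bars give CPM (linear axis from 0, cells of the 6 tumour-bearing libraries pooled) of Il1b, Il1rn, Tnf and Ptgs2 in 3 divisions of microglia (blue) and 3 of TAM II (orange). Il1rn is 65.4 in the deeper microglia division and 0 in the other microglia divisions, against 489 to 676 in TAM II, and Ptgs2 is 506 in the deeper and 27.4 in the shallower microglia division.

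With the deeper division left out, an alternative chosen after seeing the data, the WT intermediate library kept 2 microglia, below the minimum of 5, so its microglia left the fits as well. The 5 calls between TAM II and TAM I held, at log2 fold changes of 3.14 for Il1b, -1.04 for Il1a, 9.87 for Il1rn (a fit against 0 UMIs, no measure of size), -1.69 for Tnf and 5.59 for Ptgs2. Against naive microglia Il1b (7.57), Il1a (3.19), Tnf (4.35) and Nfkbia (1.76) kept their calls. Nlrp3 (1.55) lost its call, which it kept without the WT intermediate library alone (1.84), and Ptgs2 fell below the count filter.

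By stage, from early to late, none of the 10 genes passed the test in either cell class. In microglia 7 and in TAM II all 10 genes were tested, and over all genes edgeR called 0 of 1849 in microglia (0%; 90 at an unadjusted p under 0.05 and 3 by DESeq2) and 0 of 6262 in TAM II (0%; 349 and 0). With 2 libraries per stage, the values below carry the spread of single mice. The median over the genes tested was -0.50 in microglia and -0.12 in TAM II, against 0.03 and -0.03 over all genes. None of the other pathway genes tested was called in either class.

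Ptgs2 in microglia came nearest. Its level was lower late than early in both genotypes, from 507 (WT) and 226 CPM (KO) to 124 and 18.0 CPM, the last being 1 UMI. With 173 and 432 CPM between, the log2 fold change of Ptgs2 was -2.41 ± 0.70 (edgeR, unadjusted p = 0.00463, Benjamini-Hochberg adjusted p = 0.618). Leaving out the WT intermediate, the KO early or the KO intermediate library made it a call (-2.55, -2.92 and -2.52), while it was -1.50 without the WT early and -4.33 without the WT late library and was called in neither. It was -1.17 under either other clustering and -4.62 without cells holding neutrophil or border-associated macrophage transcripts, again without a call. Tnf in microglia had opposite courses by genotype, with 221 CPM early and 1263 CPM late in WT and 890 and 613 CPM in KO. Il1b in microglia had 1748 and 1421 CPM in WT and 1285 and 901 CPM in KO, at -0.50 ± 0.50. Without the deeper division, and so without the WT intermediate microglia, the Il1b difference was -2.77 and was called (edgeR, Benjamini-Hochberg adjusted p = 0.0336), against -0.54 without that library alone.

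In TAM II, Tnf was higher late than early in both genotypes, at 26.7 and 572 CPM in WT and 75.8 and 97.1 CPM in KO. The log2 fold change was 2.39 ± 0.70 (edgeR, unadjusted p = 0.00323, Benjamini-Hochberg adjusted p = 0.534). It rested largely on the WT late library, without which it was 0.33, and it was called without the KO early (3.54) or the KO late library (4.11) and without a count filter (2.32). Nfkbia was 1224 and 3666 CPM in WT and 1548 and 1861 CPM in KO, at 0.81 ± 0.38 (edgeR, unadjusted p = 0.0469, Benjamini-Hochberg adjusted p = 0.874), and was 0.25 without the WT late and 1.28 without the KO late library. Il1b, Il1rn and Ptgs2, the genes that set TAM II apart, had log2 fold changes of -0.07 ± 0.35, -0.65 ± 0.35 and -0.18 ± 0.38 between the stages, and Il1b was above all TAM I values at each stage.

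**Figure D5:**
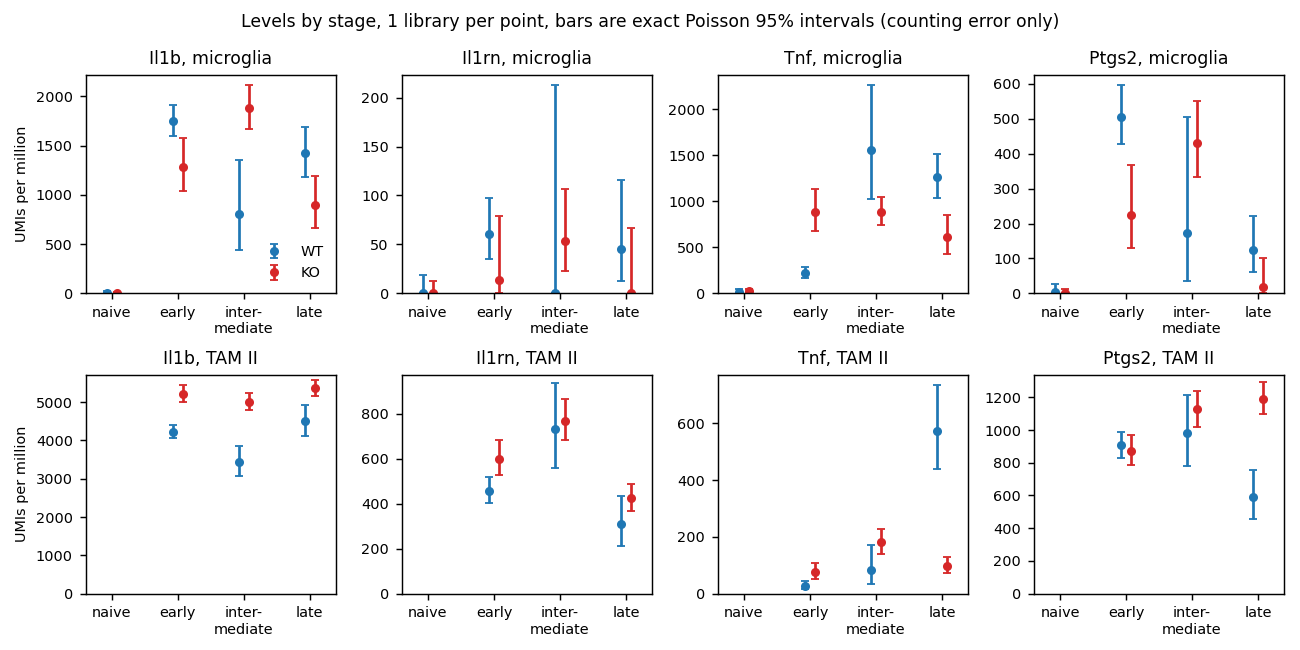
Level of Il1b, Il1rn, Tnf and Ptgs2 in CPM (linear axes from 0) by stage, in microglia (top, naive included) and TAM II (bottom), 1 point per library with its exact Poisson 95% interval, blue for WT and red for KO. Ptgs2 in microglia is lower at the late stage (124 and 18.0, the latter 1 UMI) than at the early stage (507 and 226), and Tnf in TAM II is highest in the WT late library (572).

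Whether the gap between TAM II and TAM I itself differed between the late and early stages was tested as an interaction, which called 19 of 3654 genes (0.52%) and none of the 9 tested here (4 at an unadjusted p under 0.05, and 0 called by DESeq2). The largest values were 2.16 ± 0.62 for Ptgs2 (edgeR, Benjamini-Hochberg adjusted p = 0.115) and 1.55 ± 0.53 for Tnf (adjusted p = 0.377). Tnf (3.89) and Il1b (2.83) were called and Ptgs2 turned to -0.19 once the deeper microglia division, and with it the WT intermediate microglia, was left out. Without that library alone Tnf was 1.55 and Ptgs2 2.16, neither called. Leaving out the WT late library made Ptgs2 a call (4.93), and leaving out the KO late library made Tnf one (2.22).

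Between the genotypes, none of the genes passed the test. In microglia 8 were tested and edgeR called 0 of 3285 genes (0%; 107 at an unadjusted p under 0.05 and 0 by DESeq2). Il18 was nearest, with 102, 169, 87.7 and 90.1 CPM in the libraries labelled KO and 55.4, 32.1, 57.7 and 56.4 CPM in those labelled WT, so that each KO library was above each WT library, at 1.25 ± 0.47 (edgeR, unadjusted p = 0.0145, Benjamini-Hochberg adjusted p = 1.00). These values rest on 85 UMIs over the 8 libraries, with 1 UMI in WT intermediate. Nlrp3 was -0.59 ± 0.35, Il1b -0.08 ± 0.42 and Tnf 0.14 ± 0.42. In TAM II all 10 were tested, and 9 of 6262 genes (0.144%) but none of the 10 were called, with 0 at an unadjusted p under 0.05 and 0 called by DESeq2. Casp1 was 0.76 ± 0.40 and Il1b 0.40 ± 0.28 (edgeR, Benjamini-Hochberg adjusted p = 0.999 for both). Casp1 ranged from 0.29 without the WT late library to 1.46 without the KO early library and was called in neither. Il1r2 was 1.10 ± 0.65 with all libraries and was called without the WT early (3.94) or the KO early library (3.96). Il1b in TAM II was higher in each KO library (5014 to 5375 CPM) than in each WT library (3445 to 4501 CPM), which the test over all genes did not call. The share of all genes that separate the genotypes as Il18 or Il1b did was not counted.

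The interaction of class and genotype called 1 of 3654 genes (0.0274%) and none of the 9 tested here (0 at an unadjusted p under 0.05, and 0 by DESeq2). Its largest values were -1.41 ± 0.72 for Il18 and 1.36 ± 0.72 for Il1rn (edgeR, Benjamini-Hochberg adjusted p = 1 for both). An uncalled value does not show that the genotypes were alike, and the standard errors leave differences of this size possible.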

How the data were processed

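Brain cell suspensions of naive and GL261-bearing mice were profiled by Drop-seq, and the authors deposited 8 digital expression tables of UMI counts per gene and barcode, not normalized. The submitters' processing notes name bcl2fastq 2.0, STAR and GRCm38/mm10. The 3000 barcodes of each table were cut to the 1000 deepest, genes found in at least 30 cells (18473) and cells with at least 1000 genes were kept, and t-SNE with HDBSCAN gave 12 clusters (76 cells unassigned), after the study's methods but without 70 genes (the 10 genes described and their pathway lists). The myeloid and vascular clusters were divided by Leiden clustering (leidenalg 0.10.2), a step added after seeing the data. Doublets were kept in the main results and removed in an alternative. Scrublet (scanpy 1.11.5) marked few cells, so where it marked under 0.5% its top 5% of scores were taken out. UMIs were summed per library and cell type (at least 5 cells), giving sums of 17374 to 564021 UMIs.

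Sums were tested with edgeR 4.0.16 (TMM, filterByExpr, quasi-likelihood F test, R 4.3.3), with p-values adjusted by Benjamini-Hochberg over all genes tested. SE is the size of the log2 fold change divided by the root of F. TAM II and TAM I were compared with the library as a block, genotypes with the condition as a block, and naive with tumour-bearing microglia and late with early with genotype as covariate. Each tumour library is 1 mouse, the naive titles name 2 mice, and each genotype and condition has 1 library. The test was run before use on simulated counts with 200 changed genes. These were drawn from well-counted genes with 1 fixed spread, so the run does not cover sparse genes or differences between mice. DESeq2 1.42.0, other scaling, filters, cell names and left-out libraries were tried as alternatives. Levels are UMIs per 1000000 UMIs of the sum (CPM), with exact Poisson 95% intervals that cover counting error only. Named genes are the 10 members, up to 4 called genes per pathway list and direction, and for Il1b, Il1rn, Il18 and Tnf the 3 genes most like them. The genes and lists were chosen with earlier results of these data known. Protein sequences were not used here.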

Additional observations from a re-analysis of the deposited data

Results flagged for a closer look

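In 20 groups of 6 libraries (10 genes in TAM I and in TAM II) a library was marked where its gap to the nearest other library divided by the range of the group exceeded Dixon's 95% critical value, which chance gives in about 1 of 20 groups. It marked 2. Nlrp3 in the microglia of the WT intermediate library stood at 808 CPM, apart from the other TAM I libraries (54.1 to 324 CPM), and came from 14 UMIs in 4 of its 5 microglia. Tnf in TAM II of the WT late library stood at 572 CPM, apart from the other TAM II libraries (26.7 to 180.4 CPM) with 61 UMIs in 8 of its 21 cells. Both are values of 1 mouse.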

How the results depend on the processing

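The 5 calls between TAM II and TAM I held under all 10 other settings and without each of 6 libraries (Il1b 1.66 to 1.96, Il1a -1.78 to -1.17, Il1rn 3.46 to 4.08, Tnf -2.90 to -2.43, Ptgs2 1.53 to 2.23 without 1 library). Genes called numbered 601 without the library as replicate block, against 1002, and 726 to 1170 without 1 library, with 5 to 6 of the 10 genes. No block changed a call of the 10 genes, and no pairing of mice was possible because each group holds 1 library. Uncalled values changed sign: between TAM II and TAM I, Nlrp3 without the block (-0.094) and without 1 library (-0.090 to 0.33) and Nfkbia without a filter (0.065). Against naive microglia, Casp1 turned to 0.000253 when clustering included the pathway genes and 0.010 with Leiden clustering (-0.66 to 0.12 without 1 library), and Il18 ranged from -0.42 to 0.14.

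Genes called against naive microglia numbered 59 to 619 without 1 library (4 to 6 of the 10), the fewest without the KO naive (59) or WT naive library (91), and 91 without the deeper microglia division, a setting chosen after seeing the data that also takes the WT intermediate microglia (2 cells left) out of the fit. Without that library alone 611 genes were called. Nlrp3 was then 1.55 and no longer called, nor was it without the WT naive (1.49), KO naive (2.42) or KO intermediate library (1.61), and Nfkbia was not called without the WT naive (1.60) or KO naive library (2.08). For late against early, microglia gave 3 genes with DESeq2, 11 without a filter, 2 with either other clustering, 6 without that division (1 of the 10, Il1b at -2.77; Tnf -1.05) and 2 to 40 without 1 library (0 to 1 of the 10; Tnf -0.46 to 2.15). Ptgs2 was called there without the WT intermediate (-2.55), KO early (-2.92) or KO intermediate library (-2.52), and ranged from -4.33 to -1.50 without 1 library. Leaving out cells with neutrophil or border-associated macrophage transcripts also took the WT intermediate TAM II (4 cells left) out of the TAM II fits. TAM II gave 49 genes without a filter (1 of the 10, Tnf at 2.32), 1 when clustering included the pathway genes, 33 without cells holding neutrophil or border-associated macrophage transcripts and 11 to 107 without 1 library (0 to 1 of the 10: Tnf, called without the KO early library at 3.54 and without KO late at 4.11), and Il1b turned to 0.055 with that clustering, 0.10 without doublets, 0.16 with cells of at least 500 genes and 0.075 without those marker-holding cells (-0.23 to 0.043 without 1 library, and Ptgs2 -0.76 to 0.27).

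For KO against WT, microglia gave 3 genes without a filter, 2 with cells of at least 500 genes, 5 without that division and 2 to 13 without 1 library (0 of the 10). TAM II gave 2 genes with DESeq2, 5 with RLE scaling, 56 without a filter, 1 without doublets, 2 with cells of at least 500 genes, 26 without the marker-holding cells (Il1b -0.023), 0 without the stage block and 11 to 90 without 1 library (0 to 1 of the 10: Il1r2, called without WT early, 3.94, or KO early, 3.96). The stage interaction gave 3 genes with DESeq2, 10 with Leiden clustering, 5 without doublets, 12 without that division (2 of the 10, Tnf at 3.89 and Il1b at 2.83; Ptgs2 -0.19), 1 of the 10 without the marker-holding cells (Ptgs2, 4.44) and 5 to 25 without 1 library (0 to 1 of the 10: Tnf without KO late, 2.22, and Ptgs2 without WT late, 4.93). The genotype interaction gave 5 without a filter, 3 without doublets, 0 without the marker-holding cells and 1 to 4 without 1 library (0 of the 10). In each of these fits with TAM II, leaving out the marker-holding cells also took out the WT intermediate library, with 4 TAM II left. The causes of these moves were not tested. The WT intermediate microglia were 5 cells and Il1r2 had 4 UMIs in all TAM I, which limits both.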

Other observations

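Outside the myeloid cells, Ptgs2 was read in mural cells and fibroblasts of tumour-bearing brains, with 36, 7 and 47 UMIs in WT and 28, 39 and 18 in KO at the early, intermediate and late stage (291 to 731 CPM). These came from 9, 3 and 7 cells in WT and 7, 11 and 4 in KO. The WT intermediate and KO late libraries were thus under the minimum of 5 cells. In the 8 and 12 such cells of the naive WT and KO libraries Ptgs2 was read with 0 UMIs, which allows up to 129 and 57.3 CPM. Casp1 in the implanted tumour cells, the same line in both genotypes, stood at 139, 39.7 and 39.9 CPM in WT and 128, 128 and 123 CPM in KO, so that the WT intermediate and late libraries lay apart. Thinned to 1500 UMIs per cell, 15.2%, 5.72% and 6.06% of the WT and 15.4%, 16.0% and 14.5% of the KO tumour cells held Casp1. Il18 in astrocytes was 430 and 481 CPM in the naive WT and KO libraries, and 270 to 582 CPM in the tumour-bearing libraries with at least 5 astrocytes.

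Over 71 sums per library and cell type, the genes whose level on the log2(CPM + 10) scale followed Il1b most closely among 12508 were Clec7a (Pearson's r of 0.933), Arl5c (0.930) and Gpr35 (0.928). Il1rn was followed by Msr1 (0.945), Wfdc17 (0.917) and Ccl6 (0.904), Tnf by Ccl12 (0.894), Gpr84 (0.880) and Tlr2 (0.873), and Il18 by Hepacam (0.808), Slc1a3 (0.739) and Appl2 (0.729). The sums share libraries, and the values are descriptions.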
